A study of Arabidopsis thaliana with 12 samples.

Results

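The genes described here are those of *Arabidopsis thaliana* at which H3K27me3 was at least 1.5-fold higher in *ref4-3* than in wild-type plants. They were chosen by their H3K27me3 counts: a region had to have a mean of 100 or more counts, a higher level in each *ref4-3* library than in each wild-type library, and a ratio of the genotype means of 1.5 or more. Levels were CPM, the count of a region scaled by the total of its library in the table. Of 8663 H3K27me3 regions in 8286 genes, 67 regions in 66 genes met the rule, which is 0.773% of the regions. Because the H3K27me3 values chose the genes, they are given below as a description, with no test. The H2A.Z libraries played no part in the choice, and H2A.Z was tested.

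Chromatin immunoprecipitation and sequencing (ChIP-seq) was carried out on whole rosettes of plants aged 21 days in the Col-0 background. The groups were wild type and *ref4-3*, a line with a semidominant allele that replaces an amino acid in MED5b, a subunit of the tail module of the Mediator complex. Each genotype had 2 libraries for H3K27me3, 2 for H2A.Z, a variant of histone H2A, and 2 inputs, and the 4 inputs were not analysed here. The titles number the samples of a group as replicates. The paper calls them independent biological replicates, with tissue collected for each. Whole rosettes mix all leaf cell types, so a change in a share of the cells and a change in every cell cannot be told apart.

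H3K27me3 is placed by Polycomb repressive complex 2 and marks genes held silent in a given tissue, and in plants it usually covers single genes rather than long domains. H2A.Z replaces the common H2A in nucleosomes at the start of many genes and along the body of genes that are silent but responsive to the environment. Both marks are often found on the same genes in Arabidopsis leaves. Mediator links transcription factors to RNA polymerase II.

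The H3K27me3 library totals in the table lay between 5805781 and 8466471 counts, and those for H2A.Z between 7848342 and 10128759 counts. As a check of the tissue, 9 of 9 genes that are silent in leaves, such as floral and embryo regulators, had an H3K27me3 region, and none was a member. Of 5 photosynthesis genes, 4 also had an H3K27me3 region, at wild-type levels from 24.9 to 142 CPM per kb. At their 6 regions *ref4-3* replicate 1 was above both wild-type libraries and replicate 2 below both, with replicate 1 from 1.83 to 2.38 times replicate 2. At the 67 member regions the ratio of *ref4-3* replicate 1 to replicate 2 was between 0.760 and 1.29, with a median of 1.01.

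The sequences shown first are those of the most changed region and of the leading pair of related genes. The region with the largest ratio lay in AT5G43755, annotated as a reverse transcriptase-like protein of a retroelement without long terminal repeats. Its central 200 bases, at chr5:17583487-17583686 on the minus strand of TAIR10.1 (RefSeq), hold an intron in lower case and then 74 bases of coding sequence in capitals.
AT5G43755: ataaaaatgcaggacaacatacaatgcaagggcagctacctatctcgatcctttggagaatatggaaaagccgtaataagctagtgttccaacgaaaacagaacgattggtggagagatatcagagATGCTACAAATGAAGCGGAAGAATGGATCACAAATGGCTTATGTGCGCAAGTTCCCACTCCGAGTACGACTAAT

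BZIP61 and BZIP34, the members next in interest, encode basic leucine zipper transcription factors, and BZIP34 is known for its part in pollen wall development. Their proteins were 70.6% identical over an alignment of 337 positions, gaps included. The most alike ungapped coding stretch of 90 bases, at chr3:21522199-21522288 and chr2:17647816-17647905 (both minus strand, TAIR10.1), lay inside both member regions and shared 82 bases. The capitals mark the 8 bases that differ. No part of either region had a copy elsewhere in the genome with 95% identity over 100 bases.
BZIP61: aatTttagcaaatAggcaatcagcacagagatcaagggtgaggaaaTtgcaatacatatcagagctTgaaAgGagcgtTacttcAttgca
BZIP34: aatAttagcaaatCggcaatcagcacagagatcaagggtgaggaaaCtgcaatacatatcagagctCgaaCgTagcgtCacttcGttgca

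The ratios of the 67 regions ran from 1.50 to 5.81 with a median of 1.64, against a median of 0.991 over all regions. A ratio of 2 or more was reached by 11 regions in 10 genes, and 26 regions lay under 1.6. The lowest *ref4-3* library was 1.21 to 5.34 times the highest wild-type library (median 1.51). Just inside the threshold were AT4G29700 at 1.50, XTH30 at 1.50 and AT3G24420 at 1.51, and just outside were AT1G09557 at 1.4999, AT1G66760 at 1.4994 and AGP9 at 1.49. The regions therefore grade into the rest of the table without a gap.

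**Figure D1:**
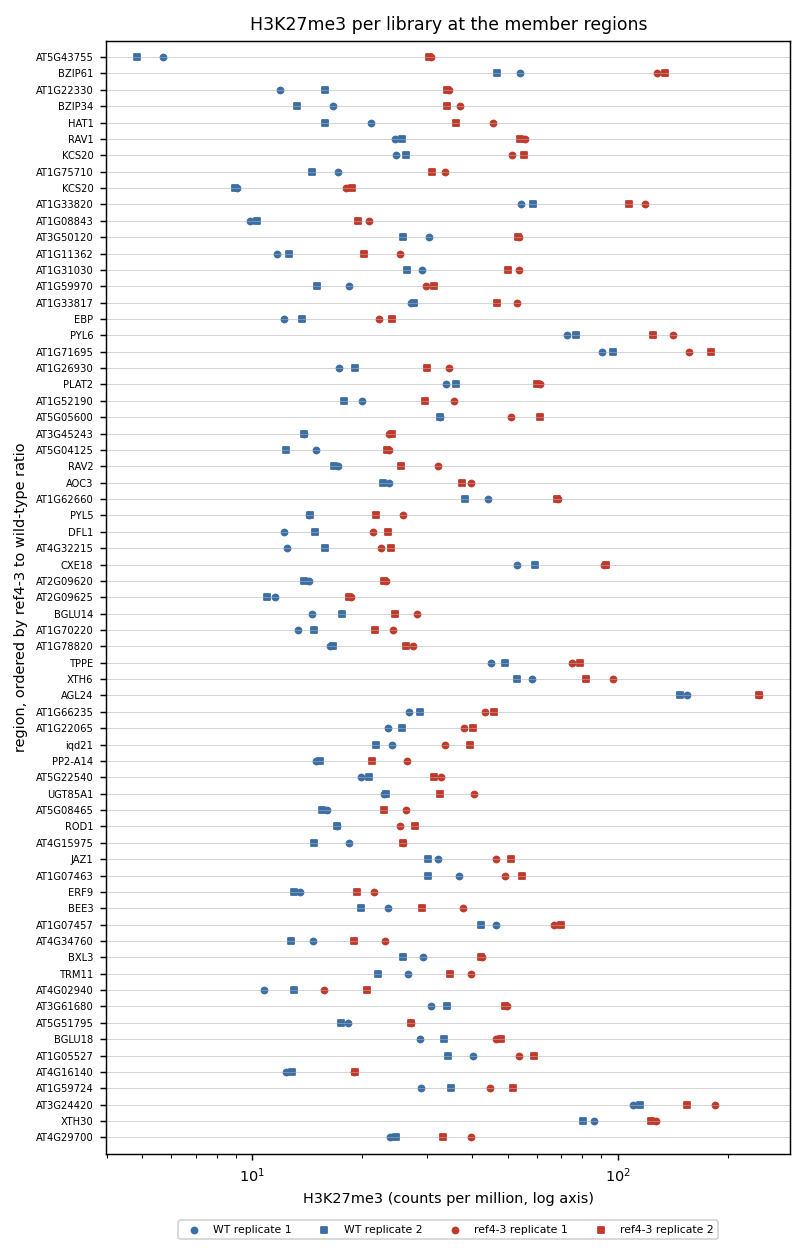
H3K27me3 level (CPM, log axis) in each of the 4 libraries at the 67 regions, ordered by the ratio of *ref4-3* to wild type, with circles for replicate 1 and squares for replicate 2. The red *ref4-3* points lie right of the blue wild-type points in every row, as the rule required, and AT5G43755 at the top stands apart with a ratio of 5.81.

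At AT5G43755 (chr5:17583401-17583772) the wild-type libraries held 5.71 and 4.84 CPM and the *ref4-3* libraries 30.8 and 30.5 CPM. These levels rest on 44 and 41 wild-type counts and on 179 and 250 *ref4-3* counts. No island, as the stretches of enrichment called by the authors are termed, covered the region in wild type, and the *ref4-3* island there was 1400 bp long. In *ref4-3* its density of 82.4 CPM per kb was above the table's median of 72.3 CPM per kb. The next counted locus, 2228 bp away, was KCS20, which encodes an enzyme that elongates very long-chain fatty acids for waxes and suberin.

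KCS20 was the only gene with 2 member regions. The longer, at chr5:17586001-17586600 and wholly in coding sequence, held 24.8 and 26.3 CPM in wild type and 51.3 and 55.3 CPM in *ref4-3*. The shorter, at chr5:17587601-17588000, held 9.08 and 8.98 CPM in wild type and 18.1 and 18.8 CPM in *ref4-3*. The ratios of 2.08 and 2.04 were close to each other, and the shorter stretch lay outside the wild-type islands.

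Transcriptional regulators are described first. Keywords on the annotated products put 7 genes in this class, 10.6% of the members against 8.54% of the genes of the table and 11.1% of the genes losing H3K27me3 by the mirrored rule (the same rule with the genotypes exchanged), so the share was near the background. RAV1, RAV2, ERF9 and BEE3, whose products carry no such keyword, were added by their names after the values were seen, which gave 11 regulators with ratios from 1.54 to 2.61. At 6 of the 11 no wild-type island covered the region.

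BZIP61 (chr3:21521201-21523200) held 54.0 and 46.7 CPM in wild type and 128 and 135 CPM in *ref4-3*, a ratio of 2.61. BZIP34 (chr2:17647201-17648600) held 16.6 and 13.2 CPM in wild type and 37.0 and 34.2 CPM in *ref4-3*, a ratio of 2.39. Both paralogues were thus among the 4 regions with the largest ratios, BZIP61 with an island over part of its region in wild type and BZIP34 with none. The wild-type density was lowest of all members at BZIP34, at 10.7 CPM per kb, and was 25.2 CPM per kb at BZIP61.

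HAT1, a homeodomain-leucine zipper factor that acts in shade and brassinosteroid responses, held 21.2 and 15.8 CPM in wild type and 45.6 and 36.1 CPM in *ref4-3* (ratio 2.21). RAV1, a factor with AP2 and B3 domains that restrains growth, held 24.5 and 25.6 CPM in wild type and 55.8 and 54.0 CPM in *ref4-3* (ratio 2.19). Its relative RAV2, also known as TEMPRANILLO2 and a repressor of flowering, held 17.1 and 16.8 CPM in wild type and 32.2 and 25.5 CPM in *ref4-3* (ratio 1.70). None of these 3 regions lay in a wild-type island. EDF3, the closest relative of RAV1 by protein sequence, was not a member but also had both *ref4-3* libraries above both wild-type libraries, with a ratio of 1.41.

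AT1G75710, a zinc finger protein, had a ratio of 2.04 (17.1 and 14.5 CPM in wild type, 33.6 and 31.1 CPM in *ref4-3*). EBP, an ethylene response factor of the oxygen-sensing group VII and also named RAP2.3, had a ratio of 1.79 (12.2 and 13.7 CPM against 22.2 and 24.1 CPM). AGL24, a MADS-box promoter of flowering, had the highest counts of any member, with 154 and 148 CPM in wild type and 244 and 244 CPM in *ref4-3*. It differed from the other regulators in that its region covered the whole gene and lay wholly inside a wild-type island. The ratios of JAZ1, ERF9 and BEE3 were 1.56, 1.55 and 1.54. Their background roles are in jasmonate repression, ethylene response and brassinosteroid response, and BEE1, the closest relative of BEE3, had a ratio of 0.662.

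Some members with known roles in hormone metabolism or perception are given next, picked after the values were seen, with no count of such genes in the table. PYL6 and PYL5, receptors of abscisic acid with 56.5% identical proteins, had ratios of 1.79 and 1.66. PYL6 held 72.8 and 76.7 CPM in wild type and 142 and 125 CPM in *ref4-3*, and PYL5 held 14.3 and 14.4 CPM against 25.8 and 21.8 CPM. DFL1, which conjugates auxin to amino acids, had a ratio of 1.66, and AT5G05600, an oxygenase that hydroxylates jasmonate, had one of 1.73. BGLU18, a glucosidase that releases abscisic acid from its glucose ester, had a ratio of 1.52.

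Jasmonate, the wound hormone made from plastid fatty acids, was followed with lists of its genes. AOC3, an allene oxide cyclase of the synthesis pathway, held 23.6 and 22.8 CPM in wild type and 39.8 and 37.6 CPM in *ref4-3* (ratio 1.67). It was the only member in a list of 13 genes of jasmonate synthesis and turnover, which does not hold AT5G05600, and of these 7 had H3K27me3, in 9 regions. All 9 had both *ref4-3* libraries above both wild-type libraries, with ratios from 1.17 to 1.67 and a median of 1.28, where 28.3% of all regions had both above. Among 13 JAZ genes, which encode repressors of the transcription factor MYC2, 5 had an H3K27me3 region and 3 of these had both *ref4-3* libraries higher. JAZ1 was the only member, with 32.3 and 30.2 CPM in wild type and 46.3 and 51.0 CPM in *ref4-3*. No member was found among 9 core hypoxia genes (3 regions), 8 early cold and wound factors (1 region) or 9 phenylpropanoid entry enzymes (7 regions).

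Keywords put 5 members (7.58%) in the class of wall and sugar enzymes, against 4.94% of the table and 8.08% of the losing genes. The enzymes named here were picked by role after the values were seen, except XTH30, and TPPE, BXL3 and BGLU14 lie outside that class. XTH30 and XTH6, which cut and rejoin xyloglucan in the wall, had ratios of 1.50 and 1.61, and the XTH30 libraries held 86.0 and 80.3 CPM in wild type and 127 and 123 CPM in *ref4-3*. TPPE, a trehalose phosphate phosphatase, had a ratio of 1.63, BXL3, a xylosidase, one of 1.54, and the glucosidase BGLU14 one of 1.64. Among the 10 largest ratios were also 2 protein-coding genes of less known role. AT1G22330, an RNA-binding protein, held 11.9 and 15.8 CPM in wild type and 34.6 and 34.0 CPM in *ref4-3* (ratio 2.47), and AT1G33820, an uncharacterized protein, held 54.5 and 58.5 CPM against 119 and 107 CPM (ratio 2.00).

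Of the 66 genes, 55 were protein-coding, 8 were long non-coding RNA genes and 3 were pseudogenes. The non-coding share was 12.1% for long non-coding RNAs against 9.88% of the table, and 4.55% for pseudogenes against 2.39%. The long non-coding RNA regions were 242 to 787 bp long, with ratios from 1.52 to 2.00, the highest at AT1G08843 (9.86 and 10.3 CPM in wild type, 20.8 and 19.5 CPM in *ref4-3*). The pseudogenes were AT1G31030, AT1G33817 and AT4G32215. A near-identical copy elsewhere matched 22.5% of the AT1G33817 region and 45.2% of the AT4G32215 region, so that their counts are uncertain, and these were the only 2 members with such a copy.

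The member regions differed from the table in their level and extent, measures that are not independent of the rule. Their median wild-type density was 27.2 CPM per kb against 73.7 CPM per kb over all regions, and 65 of 67 lay below that median. In *ref4-3* their median was 45.5 CPM per kb against 72.3, and 13 of 67 were above the table's median. The regions were also shorter, with a median of 800 bp against 1000 bp, and covered a median of 54.5% of the gene against 95.5%. They reached the start of the gene at 25 of 67 regions, 37.3% against 68.4% in the table. The regions losing H3K27me3 by the mirrored rule were alike in this, covering a median of 62.9% of the gene and its start at 42 of 100 regions, with a median wild-type density of 49.2 CPM per kb.

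**Figure D2:**
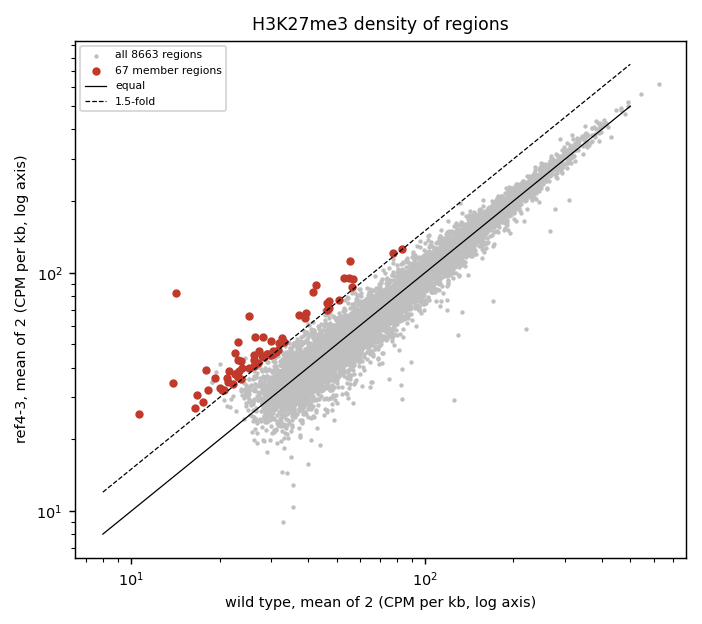
Mean H3K27me3 density (CPM per kb, log axes) in wild type against *ref4-3*, with all 8663 regions in grey, the 67 members in red, a solid line for equality and a dashed line for 1.5-fold. The members sit on or above the dashed line and mostly at the low end of the wild-type axis, with a median of 27.2 CPM per kb.

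The islands gave the same picture in positions. A region was counted when an island of either genotype covered it, so a gene could enter the table through *ref4-3* alone. Of the 67 regions, 29 lay wholly outside the merged wild-type islands, 28 partly and 10 wholly inside, while all 67 lay in *ref4-3* islands. The share outside wild-type islands was 43.3% against 1.89% of all regions. In the islands called for single libraries, 30 of the 67 regions were in neither wild-type replicate's islands, against 253 of all 8663. Those in the islands of both *ref4-3* replicates were 61 of 67, against 7782 of 8663, so this share was near the background.

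Most members stood alone. The island held a single counted gene at 54 regions. This was 80.6% of the member regions, against 50.2% of the table and 79.0% (79 of 100) of the regions losing H3K27me3. Members were on every chromosome. Chromosome 1 held 27 of 67 regions, 40.3% of the members against 26.98% of the regions of the table, and this difference was not tested. Of the genes that shared an island with another member, AT1G33817 and AT1G33820 lay 1674 bp apart in an island of 11200 bp on chromosome 1. AT1G33817 held 27.2 and 27.6 CPM in wild type and 52.9 and 46.7 CPM in *ref4-3*. The other such genes were the overlapping non-coding pairs AT2G09620 with AT2G09625 and AT1G07463 with AT1G07457, with ratios of 1.64 and 1.64, and of 1.55 and 1.54. Fragments in an overlap were counted for both genes, so each of these pairs is a single observation.

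The nearest counted H3K27me3 region on each side within 5 kb was then examined at all members. Such a neighbour existed for 37 members, and the neighbours that were not members numbered 46 regions. Their median ratio was 1.09, against 0.991 over all regions, and 36 of 46 (78.3%) were above 1, against 46.4%. In 32 of 46 (69.6%) both *ref4-3* libraries were above both wild-type libraries, against 28.3%. The 13 neighbours in the same island as the member had a median ratio of 1.07, and 8 of them were above 1.

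The neighbours nearest to the threshold were UGT85A3 beside the glucosyltransferase gene UGT85A1 at 1.47 and AT1G52191 beside the transporter gene AT1G52190 at 1.42. UGT85A3 held 71.4 and 70.6 CPM in wild type and 110 and 98.3 CPM in *ref4-3*. AT2G09630 beside the AT2G09620 pair reached 1.85 but had a mean of 87.0 counts, under the minimum. Many neighbours were close to no change, such as LBD18 (1.08) beside AT2G09620 and GA2OX4 (0.988) beside AT1G07457.

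**Figure D3:**
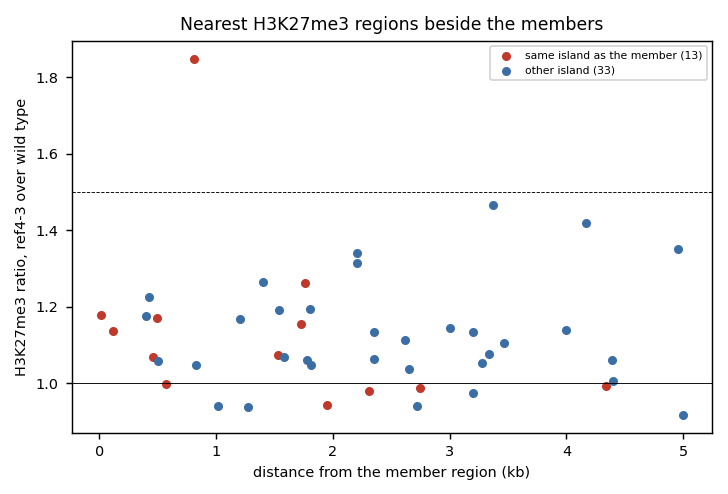
H3K27me3 ratio of the 46 nearest counted regions that were not members against their distance in kb from the member region, in red where they shared its island and in blue otherwise, with lines at 1 and 1.5. Of the 46 points, 36 lie above 1 (median 1.09), and the point above the dashed line is AT2G09630 with a mean of 87.0 counts.

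H2A.Z was then examined at the same genes, to ask whether it differed where H3K27me3 was higher. H2A.Z regions were present at 52 of the 66 genes (78.8%), against 92.6% of the other genes of the H3K27me3 table. Among protein-coding genes the share was 85.5% (47 of 55) against 95.7% of the table. The 14 genes without an H2A.Z region included RAV1, RAV2, JAZ1 and PYL5, and 4 of the 8 long non-coding RNA genes.

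At the 66 H2A.Z regions of these genes, H2A.Z was called higher in *ref4-3* at 8 and lower at 0 (edgeR exact test over 24960 regions, false discovery rate below 0.05, fold change above 1.2). Over all H2A.Z regions 2.65% were called higher and 1.63% lower, so that the members' 12.1% called higher was above the background. At an unadjusted edgeR p under 0.05, 16 of the 66 regions were higher and 3 lower, against 2387 and 2187 of all 24960. DESeq2 called 0 of the 66 in either direction and 0.0723% of all regions higher, with adjusted p-values from 0.147 to 0.856 at the 8 regions. Far fewer regions were called by edgeR when a wild-type library was left out, both at the members and over all regions. The log2 fold changes of the 8 regions were then 0.23 to 0.86 without wild-type replicate 1. Without wild-type replicate 2 they were 0.33 to 0.76. All 8 kept a fitted value above 0 in each of these fits.

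The called regions lay in 7 genes. At XTH30, H2A.Z was higher in both of its regions. The region at the start of the gene (chr1:11575401-11575800) held 10.8 and 11.6 CPM in wild type and 18.2 and 18.4 CPM in *ref4-3*, which is 0.70 ± 0.14 on the log2 scale (value ± SE throughout, edgeR adjusted p = 0.000102). The region further in (chr1:11577201-11577800) held 18.9 and 18.8 CPM against 25.1 and 25.4 CPM, a log2 fold change of 0.42 ± 0.12. The libraries of the genotypes did not overlap at either region.

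At EBP, H2A.Z was 26.9 and 19.4 CPM in wild type and 33.1 and 37.4 CPM in *ref4-3*, a log2 fold change of 0.61 ± 0.10 (edgeR adjusted p = 1.97e-06). The wild-type libraries differed here, and without wild-type replicate 2 the value was 0.39 with an edgeR adjusted p of 0.157. At AT1G75710 the region shared with H3K27me3 held 15.3 and 15.8 CPM in wild type and 22.8 and 22.7 CPM in *ref4-3* (log2 fold change 0.55 ± 0.12). A second H2A.Z region of this gene, outside the H3K27me3 region, had a log2 fold change of 0.17 ± 0.091 and was not called.

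At BZIP61, H2A.Z was 26.4 and 24.0 CPM in wild type and 34.6 and 33.5 CPM in *ref4-3*, a log2 fold change of 0.44 ± 0.10 (edgeR adjusted p = 0.00144). At BZIP34 the libraries held 50.3 and 49.6 CPM and 56.4 and 60.2 CPM, a log2 fold change of 0.22 ± 0.08 that did not pass (edgeR adjusted p = 0.061). The fold change at BZIP34 was also under the threshold of 1.2. The groups did not overlap at either paralogue. The difference between the paralogues was not tested.

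The remaining called regions were at AT4G32215, AT1G33820 and CXE18. H2A.Z at AT1G33820 was 21.7 and 22.2 CPM in wild type and 28.7 and 28.0 CPM in *ref4-3* (log2 fold change 0.37 ± 0.11), and at the carboxylesterase gene CXE18 64.5 and 69.3 CPM against 81.5 and 80.5 CPM (0.27 ± 0.07). The log2 fold change at AT4G32215 was 0.48 ± 0.12, with the limit on its counts given above. Among the 11 regulators, 8 had H2A.Z, in 10 regions, of which 10 had a fitted value above 0 and 3 were called higher. Over all H2A.Z regions 49.6% were above 0 and 2.65% called higher. For the H2A.Z regions of all members these shares were 71.2% and 12.1%, and the regulators were not tested against the other members. These 11 include the 4 added by name after the values were seen. The values at HAT1 (0.028 ± 0.11) and at AGL24 (0.17 ± 0.12 and 0.088 ± 0.10) were within their errors or little above them.

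**Figure D4:**
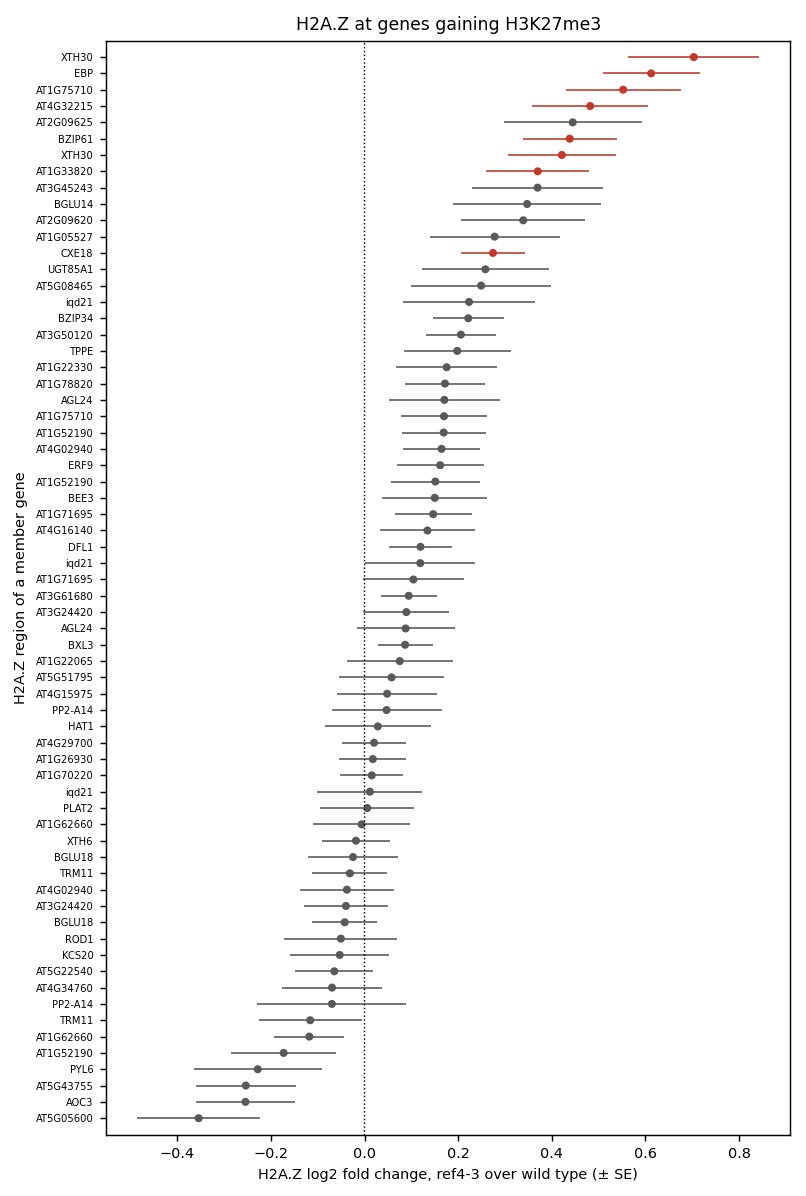
H2A.Z log2 fold change of *ref4-3* over wild type (± SE from edgeR) at the 66 H2A.Z regions of the 52 member genes that had one, with called regions in red and a dotted line at the median of all H2A.Z regions. The 8 red points lie between 0.27 and 0.70, and no point on the left side passed the test.

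Not all members had higher H2A.Z. The lowest fitted values were at AT5G05600 (-0.35 ± 0.13), AOC3 (-0.25 ± 0.11) and AT5G43755 (-0.25 ± 0.11), and none passed the test. The value at AT5G05600 rested on *ref4-3* replicate 2: the libraries held 19.2 and 19.9 CPM in wild type and 19.6 and 10.6 CPM in *ref4-3*, and without that library the log2 fold change was -0.0017, against -0.88 (edgeR adjusted p = 4.13e-05) without *ref4-3* replicate 1. The AOC3 value shrank to -0.15 when wild-type replicate 2 was left out and to -0.16 when *ref4-3* replicate 2 was. At AT5G43755, where H3K27me3 had the largest ratio, H2A.Z was 28.3 and 29.7 CPM in wild type and 25.5 and 23.1 CPM in *ref4-3*. At AOC3 it was 27.8 and 31.6 CPM in wild type and 26.7 and 23.0 CPM in *ref4-3*. At both genes the wild-type libraries were above both *ref4-3* libraries, the opposite order to H3K27me3. In the jasmonate synthesis and turnover list, edgeR called 7 of 15 H2A.Z regions lower and 0 higher. In the JAZ list it called 4 of 11 lower and 0 higher. Over all H2A.Z regions edgeR called 1.63% lower and 2.65% higher, and DESeq2 called 0.0723% lower. DESeq2 calls in these lists are not given here. Both *ref4-3* libraries were below both wild-type libraries at each called region of the lists. Of the *ref4-3* libraries, replicate 2 was the lower at each of these called regions. The gap between them was small at JAR1 (57.2 and 53.3 CPM) and wider at JAZ7 (25.0 and 17.9 CPM). At JAZ5 the low value came mainly from *ref4-3* replicate 2, with 41.9 and 45.9 CPM in wild type and 39.8 and 21.3 CPM in *ref4-3*. Fits with a library left out are not given for these lists.

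Over all 66 regions the median H2A.Z log2 fold change was 0.10, with 47 (71.2%) above 0, against 49.6% of all H2A.Z regions. Both *ref4-3* libraries were above both wild-type libraries at 29 of the 66, against 6000 of all 24960. The median was -0.0012 over all H2A.Z regions and -0.023 over the other genes of the H3K27me3 table. Each *ref4-3* library gave a higher median over the members than each wild-type library, by 0.080 to 0.13, while the replicates of a genotype differed by 0.0064 and 0.012. The 55 H2A.Z regions that shared bases with the H3K27me3 region had a median of 0.12 and held all 8 calls. The 11 regions elsewhere in these genes had a median of 0.011 and 0 calls. Over all H2A.Z regions 2.65% were called higher, so 0 of 11 was near the background. The difference between the 55 and the 11 regions was not tested.

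The mirrored rule, with H3K27me3 lower in *ref4-3* by the same factor, gave 100 regions in 99 genes for comparison. At their 119 H2A.Z regions the median log2 fold change was -0.091, with 13 (10.9%) called lower and 1 (0.840%) higher. Over all H2A.Z regions 1.63% were called lower and 2.65% higher. The neighbours of the gaining genes had 48 H2A.Z regions, of which 0 were called higher and 1 lower, near the shares over all regions. Since the gaining and losing genes share all 4 H2A.Z libraries, these values stand side by side with no test between them. Whether both marks were precipitated from the same chromatin was not given in the sources used here.

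**Figure D5:**
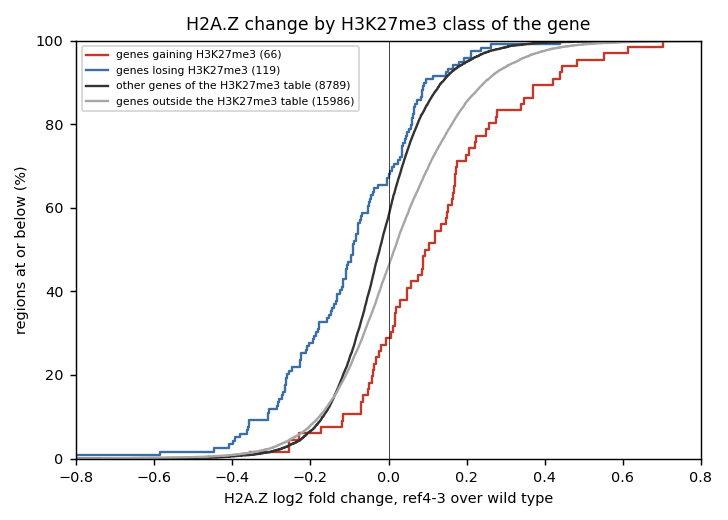
Cumulative share of H2A.Z regions (%) at or below each log2 fold change of *ref4-3* over wild type, for genes gaining H3K27me3 (66 regions), genes losing it (119), other genes of the H3K27me3 table (8789) and genes outside it (15986), with the axis ending at 0.8 on either side. The gaining genes (median 0.10) lie to the right of the other genes of the table (-0.023) and the losing genes (-0.091) to the left.

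Relatives of the members were also looked up. Of 53 members with another protein of the genome matched by blastp at an E-value under 1e-10, the best match of 26 was in the H3K27me3 table. For 4 of these the match was a member, namely BZIP34 and BZIP61, and PYL6 and PYL5, with each pair counted from both sides. Of the other 22 matches, 13 had a ratio above 1, with a median of 1.04. Over all regions 46.4% were above 1, with a median of 0.991. UGT85A3, AOC2, AT3G45245, AT5G22550, AT1G59723 and AT3G15830 were both such matches and neighbours counted above, so these descriptions are not separate. The pairs inside the list with at least 30% identity over 60% of the longer protein were BZIP34 with BZIP61, RAV1 with RAV2 (63.3% identical proteins), PYL6 with PYL5, XTH30 with XTH6 (39.6%), BGLU18 with BGLU14 (40.7%) and AT3G50120 with AT5G22540 (34.5%).

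The promoters of the 55 protein-coding members, taken from 250 bases before to 50 after the gene start, were searched on both strands for the letters of motifs known in plants. The G-box CACGTG, the site of MYC2 and other bHLH and bZIP factors, was in 8 of 55 promoters (14.5%), against 6.67% of the promoters of the table, 7.68% of all protein-coding genes and 12.6% of the genes losing H3K27me3. AAACCCTA, the core of the telobox, was in 0 of 55 against 7.19% of the table, and GAGAGAGA in 3 of 55 (5.45%) against 8.50%. Within 300 bases about the centre of the member regions these 3 motifs were in 8.96%, 2.99% and 7.46% of regions, against 5.81%, 4.71% and 4.87% of all regions. The 8 promoter G-boxes are shown because both BZIP61 and BZIP34 have one, each in 30 bases of the strand of the gene from RefSeq (TAIR10.1), with the motif in capitals.
BZIP61: gttcactaagagCACGTGctgcctgattct
BZIP34: aggtcacaagaaCACGTGcttgcttgattc
TPPE: attggaagggacCACGTGgcgcttgatggg
AT5G22540: gtaagtgtaaaaCACGTGgagactataaaa
AT4G16140: tccttatttgtcCACGTGcatgctctgcac
BGLU18: cttataaagaatCACGTGctactaactagt
PLAT2: ccggccccaatcCACGTGaaacatgttatg
AT3G61680: tttctctccatcCACGTGacttgattctct

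In these promoters the motif began 39 bases before the annotated gene start at BZIP61 and 229 bases before it at BZIP34. The flanks of the BZIP61 and BZIP34 sites (chr3:21523540-21523569 and chr2:17649274-17649303) lay outside the H3K27me3 regions of these genes. A match of letters is a description, and binding was not measured.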

How the data were processed

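ChIP-seq libraries of H3K27me3 and H2A.Z from wild type and *ref4-3* (2 each) were grouped by their titles. The authors trimmed reads with fastp, mapped them to TAIR10 with Bowtie2, called islands with epic2 in bins of 200 bp and deposited raw counts per gene region, a region being the part of a gene inside islands of either genotype. The counts have no input subtraction, and scaling to the table's own totals cannot show a change shared by nearly all regions. Of the deposited island lists only positions were used, not the score of the authors' caller.

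The H3K27me3 rule was applied to CPM from column totals. H2A.Z counts were tested with edgeR 4.0.16 (exact test, TMM factors, Benjamini-Hochberg over 24960 regions), with the fold change standard error from the fitted dispersions, in R 4.3.3. This test was checked on simulated data. The simulated counts were drawn with the dispersions that edgeR had fitted, so the check cannot show whether those dispersions are right. DESeq2 1.42.0, the quasi-likelihood test, a replicate block, library totals, count and fold thresholds and leaving out libraries were alternatives. With 2 libraries a group, the adjusted p-values rest on dispersion shared across regions. Gene parts, names and sequences came from RefSeq TAIR10.1, whose coordinates match the files, and copies from blastn 2.17.0. Genes were named when they were among the 10 largest ratios, had a called H2A.Z region, were in a gene list, shared an island with another member, were regulators or lay next to the threshold, and further members were named for their roles after the values were seen. The members and lists were chosen with earlier results of these data known. Same-numbered libraries did not deviate together (correlation -0.025 for H2A.Z and 0.072 for H3K27me3), so the numbers were not used as pairs.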

Additional observations from a re-analysis of the deposited data

How the results depend on the processing

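TMM factors gave 69 member genes and a minimum mean count of 50 gave 75, each with all 66 among them. A minimum of 200 left 35, a ratio of 1.3 gave 217 and a ratio of 2 left 10. Leaving out a library in turn gave 66 to 85 genes, with 55 to 57 of the 66 among them. The 8 H2A.Z regions called higher became 0 with DESeq2 and 2 at a fold change of 1.5, where 0.0723% and 0.308% of all regions were called higher. Their number also changed when a library was left out, and lower calls at members appeared only without *ref4-3* replicate 1. The cause of these differences was not tested.

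With the replicate number as a block the quasi-likelihood test called 8 higher and 0 lower with a median of 0.10, and the block changed no call of the 8. The median H2A.Z log2 fold change was 0.11 with library totals, 0.12 over regions overlapping H3K27me3, 0.11 with a single region per gene, and 0.072 to 0.10 when a library was left out. Uncalled values changed sign when a library was left out, with ranges from -0.13 to 0.16 at HAT1 (also -0.0071 without wild-type replicate 1), from -0.031 to 0.21 at AGL24 and up to 0.016 at KCS20, where the lowest was -0.13. Of the other values at named genes under an alternative, 151 kept their side of the threshold, 22 lost a call and 3 gained one. Depth limits the low regions, since a member region held as few as 41 counts in a library.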

Other observations

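Beside the 67 regions, 10 regions had a ratio of 1.5 or more but a mean under 100 counts, and 0 regions of sufficient count reached 1.5 with overlapping libraries. AT2G09630, next to the AT2G09620 pair on chromosome 2, was one of the low regions, with 7.40 and 9.21 CPM in wild type and 16.2 and 14.5 CPM in *ref4-3*. In the table as a whole, 2397 regions with 100 or more counts had both *ref4-3* libraries above both wild-type libraries.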
